A study of Mus musculus with 15 samples.

Results

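The 16617 positions described here are the places in the mouse genome, chromosome 1 left out, at which the authors' deposited table lists a difference in histone H3 occupancy between susceptible and control mice. They were chosen by chromosome alone and not by direction or gene. The whole table holds 49408 positions, of which 32791 lie on chromosome 1. Among the 16617, 6716 were marked Up and 9901 were marked Down, so that 40.4% were Up (95% Wilson interval 39.7% to 41.2%) and 59.6% were Down.

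Control C57BL/6 mice were compared with C57BL/6 mice that were classed as susceptible by a social interaction test after 10 days of defeat by CD1 aggressors. Nucleus accumbens tissue was collected at 48 hours from the final bout, with the punches of 10 mice combined per replicate. Lightly fixed chromatin was cut with micrococcal nuclease, an enzyme that digests the DNA between nucleosomes, and precipitated with an antibody against H3. The 100 bp reads of the groups, resilient mice included, were compared pair by pair. The labels give neither the age nor the sex of the mice, and they state no defeat for the controls.

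Each listed position carries only a direction. Up is read here as more H3 in susceptible than in control mice, after the order of the names in the comparison. The deposited material does not state this order, and the opposite reading would turn every direction below. No size, p-value or read count accompanies a position, and each pair of groups has 1 result, so the spread between replicates is unknown and no test between animals was possible. The intervals cover counting error over positions only and treat positions as independent, which neighbouring positions are not. In a pooled punch of mixed cell types, a change in the share of a cell type and a change within its cells cannot be told apart. The occupancy list holds no expression values, so the tissue label could not be checked against marker levels.

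A nucleosome is a stretch of DNA wound around a histone core that contains H3, and H3 occupancy reports how often a stretch is wrapped. Nucleosomes near gene starts limit access of transcription factors and RNA polymerase, and remodelling complexes such as ACF, made of ACF1 and the ATPase SNF2H, slide and space them. The nucleus accumbens is a reward centre of the ventral striatum whose main cells are medium spiny neurons that release GABA.

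Close to gene starts the positions were few, went both ways and often lay at genes of the chemical senses. A total of 57 positions lay within 250 bp of a start, with 23 Up and 34 Down (40.4% Up). Olfactory receptor genes, which encode odour receptors of the nose, held 13 of them, 7 Up and 6 Down, and a vomeronasal receptor gene held 1 more. These families thus made up 24.6% of the 57, against 4.69% of the 27025 genes in the RefSeq promoter table. The promoters below are examples from this set and do not represent its CG content. They are RefSeq reference sequence of build GRCm38.p6, the 250 bases before each start with every CG dinucleotide in capitals. Vmn2r89, Vip, Olfr1120 and Zfp42 are among the closest positions in their direction. Agt and Efcab8 were chosen after their values were seen, as promoters with no CG and with the most CG.
Vmn2r89 promoter, chr14:51451712-51451961, plus strand, 1 CG: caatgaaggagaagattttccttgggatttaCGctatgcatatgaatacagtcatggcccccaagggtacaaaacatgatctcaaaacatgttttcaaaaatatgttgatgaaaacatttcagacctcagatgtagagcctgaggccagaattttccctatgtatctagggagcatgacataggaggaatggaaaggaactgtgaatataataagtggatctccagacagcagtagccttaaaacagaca
Vip promoter, chr10:5638968-5639217, plus strand, 3 CG: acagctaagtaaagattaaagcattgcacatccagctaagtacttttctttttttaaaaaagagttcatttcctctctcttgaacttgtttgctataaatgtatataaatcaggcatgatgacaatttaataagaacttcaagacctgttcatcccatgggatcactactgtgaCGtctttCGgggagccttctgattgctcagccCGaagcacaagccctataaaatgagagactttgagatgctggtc
Olfr1120 promoter, chr2:87357196-87357445, plus strand, 0 CG: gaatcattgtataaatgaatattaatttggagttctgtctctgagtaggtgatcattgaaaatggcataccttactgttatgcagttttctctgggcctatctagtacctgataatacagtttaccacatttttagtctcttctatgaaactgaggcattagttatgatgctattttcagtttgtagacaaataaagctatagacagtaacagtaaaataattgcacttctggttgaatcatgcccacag
Zfp42 promoter, chr8:43307010-43307259, minus strand, 9 CG: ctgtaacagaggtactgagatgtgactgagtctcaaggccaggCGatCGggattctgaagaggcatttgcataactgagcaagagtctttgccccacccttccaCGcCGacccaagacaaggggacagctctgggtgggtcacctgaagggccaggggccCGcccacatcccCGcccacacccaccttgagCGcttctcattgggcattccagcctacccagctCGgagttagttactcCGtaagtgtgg
Agt promoter, chr8:124569707-124569956, minus strand, 0 CG: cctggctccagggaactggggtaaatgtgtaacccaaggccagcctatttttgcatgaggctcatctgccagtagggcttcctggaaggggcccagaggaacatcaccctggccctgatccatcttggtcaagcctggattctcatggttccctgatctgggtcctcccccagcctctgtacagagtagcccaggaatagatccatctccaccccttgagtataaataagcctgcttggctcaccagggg
Efcab8 promoter, chr2:153778996-153779245, plus strand, 16 CG: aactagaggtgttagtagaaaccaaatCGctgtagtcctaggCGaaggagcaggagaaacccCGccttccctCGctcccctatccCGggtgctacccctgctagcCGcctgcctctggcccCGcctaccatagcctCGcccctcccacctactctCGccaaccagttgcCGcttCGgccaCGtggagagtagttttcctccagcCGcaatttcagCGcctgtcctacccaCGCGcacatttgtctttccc
The H3 position at Vmn2r89, a pheromone receptor gene, was Up and lay 15 bp upstream of the start, at 52071622 on chromosome 14 (mm9, the build of the deposited positions). At Vip, which encodes vasoactive intestinal peptide, a neuropeptide of some interneurons, the position was Up and lay 92 bp inside the gene, at 4707232 on chromosome 10. At Olfr1120 it was Down at +70 bp. At Zfp42, a zinc finger gene known as a marker of pluripotent cells, it was Down at +82 bp. At Agt, which encodes angiotensinogen, the precursor of angiotensin, it was Down at +96 bp, and at Efcab8 it was Up at +118 bp. The printed stretches are from a later build than the positions. Whether the starts are the same base in both builds was not checked, and Vip is on opposite strands in the 2 annotations. The sequence at the positions themselves is not analysed here.

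CG dinucleotides were sparse in this set. For a gene with more than 1 start, the highest CG count and the highest GC content among its starts were used. That start need not be the one nearest the position, and the part of this rule in the comparison was not tested. Of the 57 genes, 47 (82.5%) had a sequence in the table, and their promoters held a median of 1 CG, against 6 over all 27025 genes. At least 10 CG occurred in 2 of the 47, Efcab8 with 16 and Atp8b5 with 10. That is 4.26% (Wilson interval 1.17% to 14.2%), against 40.2% of all genes. GC content was 47.6% against 52.8%. The median was 1 CG among both the 21 matched Up genes and the 26 matched Down genes. Of the 43 genes of this set outside the olfactory and vomeronasal families, 33 (76.7%) had a sequence. Their promoters held a median of 3 CG, against 7 over all genes outside these families. At least 10 CG occurred in 2 of the 33 (6.06%; 1.68% to 19.6%), against 42.2%. Genes without a sequence are not covered. In the other pairs of groups, which share animals with this one, fewer of the genes within 250 bp had a sequence (71.7% and 72.9%). The matched promoters held a median of 2 CG for resilient against control and 1 for resilient against susceptible. At least 10 CG occurred in 4.65% and 5.71% of them. Among promoters with a sequence, sparse CG was thus not particular to susceptible against control.

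The other starts with a position within 100 bp were of many kinds. On the Up side were Olfr943 (+18 bp), Tcl1b5 (-56 bp), Gm13078 (+65 bp), Bdh2 (+88 bp), a cytosolic dehydrogenase gene, and Gimap8 (+93 bp), a GTPase gene of lymphocytes. On the Down side were Gm21498 (-26 bp), Slc5a9 (+30 bp), a sugar transporter gene, Pisd-ps3 (+33 bp), Srl (+62 bp), which encodes sarcalumenin of muscle, 1700067P10Rik (-70 bp), Olfr215 (+71 bp), Olfr568 (+77 bp) and Sfi1 (+85 bp). Among the genes of the lists by function used below, only Vip and Pde1c, a calmodulin-regulated phosphodiesterase gene with a Down position at -234 bp, had a position within 250 bp.

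**Figure D1:**
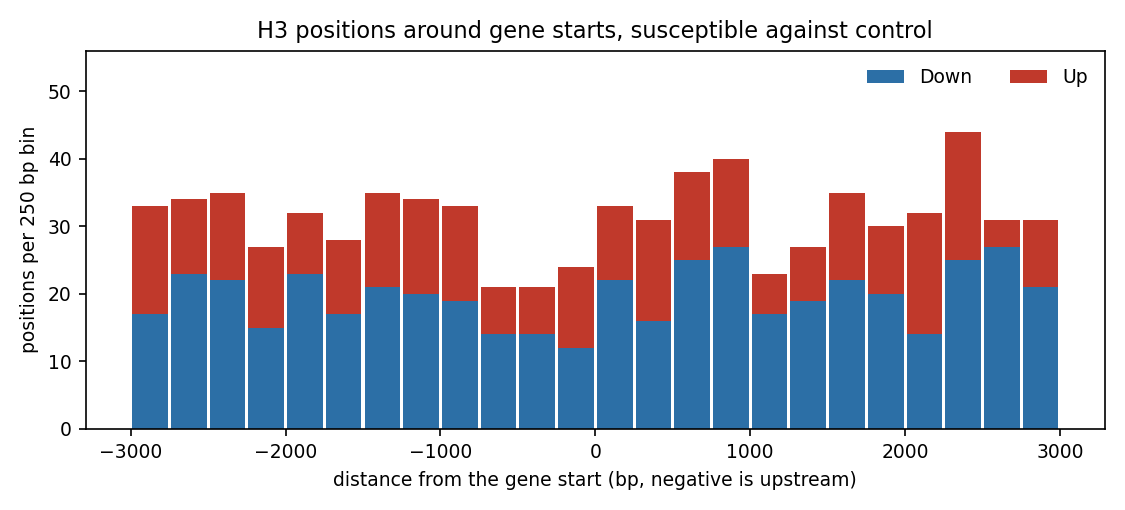
Number of positions in each 250 bp bin of distance from the gene start (negative is upstream), stacked by direction; the bars count positions of the promoter classes over 708 genes. Bins hold 21 to 44 positions, and Down outnumbers Up on both sides.

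The wider promoters, up to 3000 bp on either side of a start, held 752 positions at 708 genes, of which 280 (37.2%; 33.9% to 40.7%) were Up. Per kb of window the count was 114 within 250 bp, 123 from 250 to 1000 bp and 128 from 1000 to 3000 bp, as the histogram of distances shows. Upstream of the start 39.2% of 357 positions were Up, and downstream 35.4% of 395. Most promoters had 1 position. All positions of the promoter were Up at 250 genes and Down at 431, and 27 of the 37 genes with at least 2 promoter positions held both directions. At least 3 promoter positions were listed at Sfi1 (5), at Rn45s (5, all Down), which encodes the ribosomal RNA precursor, and at Psg23 (3), a pregnancy-specific glycoprotein gene.

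At transmitter, adhesion and guidance genes, promoter positions were single. The position was Up at Slc18a2 (-1026 bp), the vesicular monoamine transporter, at Adra1b (+2243 bp), an adrenaline receptor, at Avpr1a (-2203 bp), a vasopressin receptor, at Grm6 (+2186 bp), a glutamate receptor, and at Vegfa (-1806 bp), a vessel growth factor. It was Down at Th (+1620 bp), the rate-limiting enzyme of dopamine synthesis, at Grin3a (-2981 bp), an NMDA receptor subunit, at Camk1d (-2242 bp), a calcium-dependent kinase, at Dscam (+2941 bp), Pcdh15 (+1098 bp) and Cdh22 (-2135 bp), adhesion molecules, at Plxna1 (-2335 bp), a semaphorin receptor, and at Emx1 (+1018 bp), a cortical transcription factor. Each of the 4 microRNA genes with a position, Mir155, Mir381, Mir680-3 and Mir684-2, had 1 Down position.

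Away from promoters, Down prevailed within genes and the balance came closest to even far from genes. Gene bodies held 4815 positions in 3028 genes, 29.0% of all, and 37.6% of them were Up (36.3% to 39.0%). Other intergenic sequence held 8181, 49.2% of all, with 40.1% Up (39.0% to 41.2%). Gene deserts, long stretches without genes, held 2773 with 46.5% Up (44.6% to 48.3%). The share was higher in deserts than in gene bodies on 16 of 18 autosomes, with differences from -0.945 percentage points on chromosome 19 to 22.5 on chromosome 6 and a median of 7.35. Within gene bodies, the share was 39.0%, 37.6%, 36.3%, 38.5% and 36.6% in 5 equal parts of the gene, from its start to its end.

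**Figure D2:**
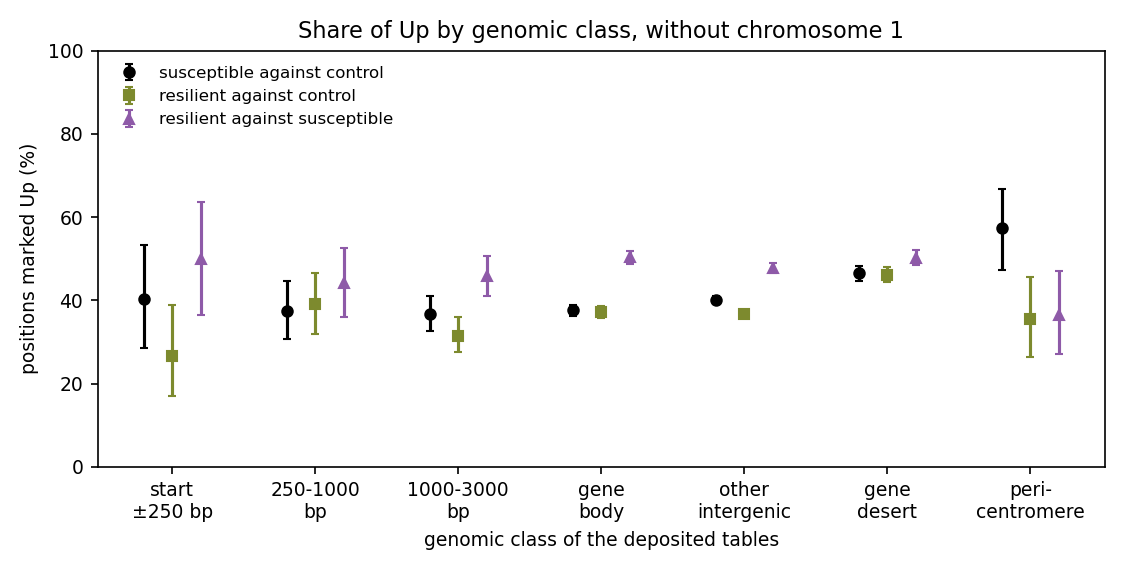
Share of positions marked Up (percent) in each genomic class of the deposited tables, with Wilson 95% intervals over positions, for susceptible against control (black circles) and, beside it, the other pairs of groups. In susceptible against control, gene deserts (46.5%) lie above gene bodies (37.6%) and pericentromeres (57.3%) have the widest interval after the starts.

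Pericentromeric sequence, the repeat-rich DNA beside the centromere, held 96 positions, 55 of them Up (57.3%; 47.3% to 66.7%). The Y chromosome supplied 35 of these, 27 Up, and the other chromosomes 61, 28 Up (45.9%). The other pairs of groups share animals with this one, so their values are only set side by side. Outside chromosome 1 resilient against control listed 16132 positions with 38.3% Up, and resilient against susceptible 14963 with 48.8% Up. In gene bodies the 2 shares were 37.2% and 50.3%, in gene deserts 46.2% and 50.3%, and in pericentromeres 35.5% and 36.5%.

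The share of Up also varied along the chromosome. In the first 20 Mb of the autosomes, the end that carries the centromere in the mouse, 43.8% of 2691 positions were Up (42.0% to 45.7%). Between the ends the share was 40.2% of 10939, and in the last 20 Mb it was 36.7% of 2861 (35.0% to 38.5%). The first 20 Mb had the higher share on 15 of 18 autosomes, with differences from -9.22 to 22.8 percentage points and a median of 5.89. Gene bodies went from 43.1% in the first 20 Mb to 33.2% in the last, and other intergenic sequence from 44.0% to 35.9%. Gene deserts did not follow, with 44.7% and 45.9%. For resilient against control, which shares the control mice, the 3 shares were 40.1%, 38.9% and 34.6%.

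Among whole chromosomes, the autosomes lay close together and X and Y stood apart. The 18 autosomes held 6.39 (chromosome 14) to 9.09 (chromosome 7) positions per Mb, and all 18 had more Down than Up. Their share of Up ran from 35.1% on chromosome 19 to 46.3% on chromosome 3, with a median of 39.9%. The X chromosome held only 83 positions, 0.498 per Mb against 7.25 for the autosomes together, and 53 of them were Up (63.9%; 53.1% to 73.4%). Without Mid1 and G530011O06Rik, a gene inside the span of Mid1 on the other strand, 66 positions remained on X, 38 of them Up (57.6%; 45.6% to 68.8%). The Y chromosome held 43, with 33 Up (76.7%). Positions on X were also few in resilient against control and resilient against susceptible, which share animals with this pair. X held 0.444 and 0.606 per Mb there, against 7.04 and 6.52 for the autosomes. The share of Up was 33.8% of 74 and 28.7% of 101 on X, and 56.7% of 30 and 35.5% of 31 on Y. How many X copies the mice carried is not given in the labels, and the part of copy number in these counts was not tested.

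**Figure D3:**
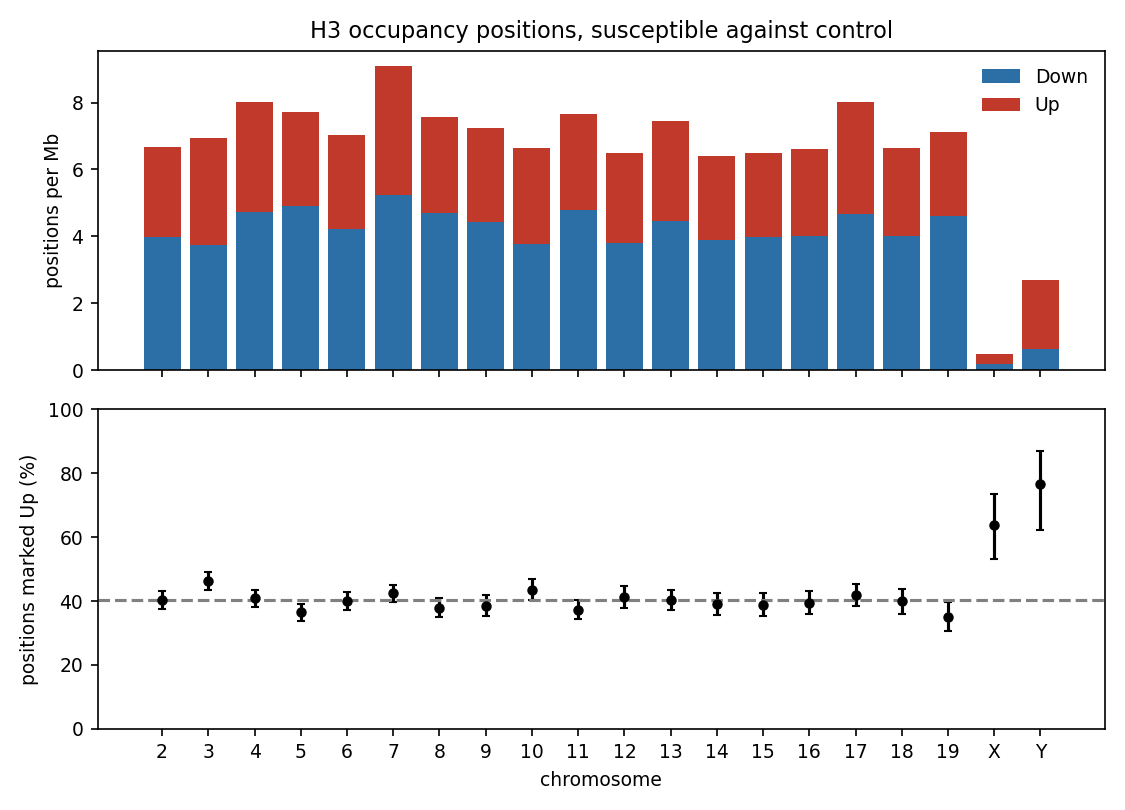
Positions per Mb of chromosome, stacked by direction (top), and share of positions marked Up with Wilson 95% intervals (bottom). The dashed line marks 40.4%, the share over all positions outside chromosome 1, X and Y included. The autosomes lie between 35.1% and 46.3%, and X (63.9%) and Y (76.7%) lie above them on few positions.

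A gene was named for 5567 positions, of which 37.6% were Up, and 3607 genes had at least 1. Of these, 2601 had 1 position, 600 had 2, 303 had 3 or 4 and 103 had at least 5. The 103 held 752 positions with 41.4% Up. They were long genes, with a median length of 424 kb against 34.2 kb for genes with 1 position. More positions were Up than Down in 29 of them, fewer in 68, and 6 were even. The median density of the 103 was 1.56 positions per 100 kb.

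Some of these 103 genes were far denser. Among them, density passed 10 per 100 kb in 8, Rn45s (103), Gm7120 (75.2), Sfi1 (56.8), Psg23 (49.2), Chi3l3, Entpd4 (16.9), Mid1 (14.4) and Loxl2 (10.4). Sfi1, which encodes a centrosomal protein, had the most positions of any gene, 35 within 61.6 kb, of which 24 were Up. Mid1, a ubiquitin ligase gene that spans the pseudoautosomal boundary of X, had 16 with 14 Up, all within 17.8 kb of its 111 kb. Repeated copies of a gene cannot always be told apart by short reads, and the part of copy number in the values at Sfi1, Mid1 and Rn45s was not tested.

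**Figure D4:**
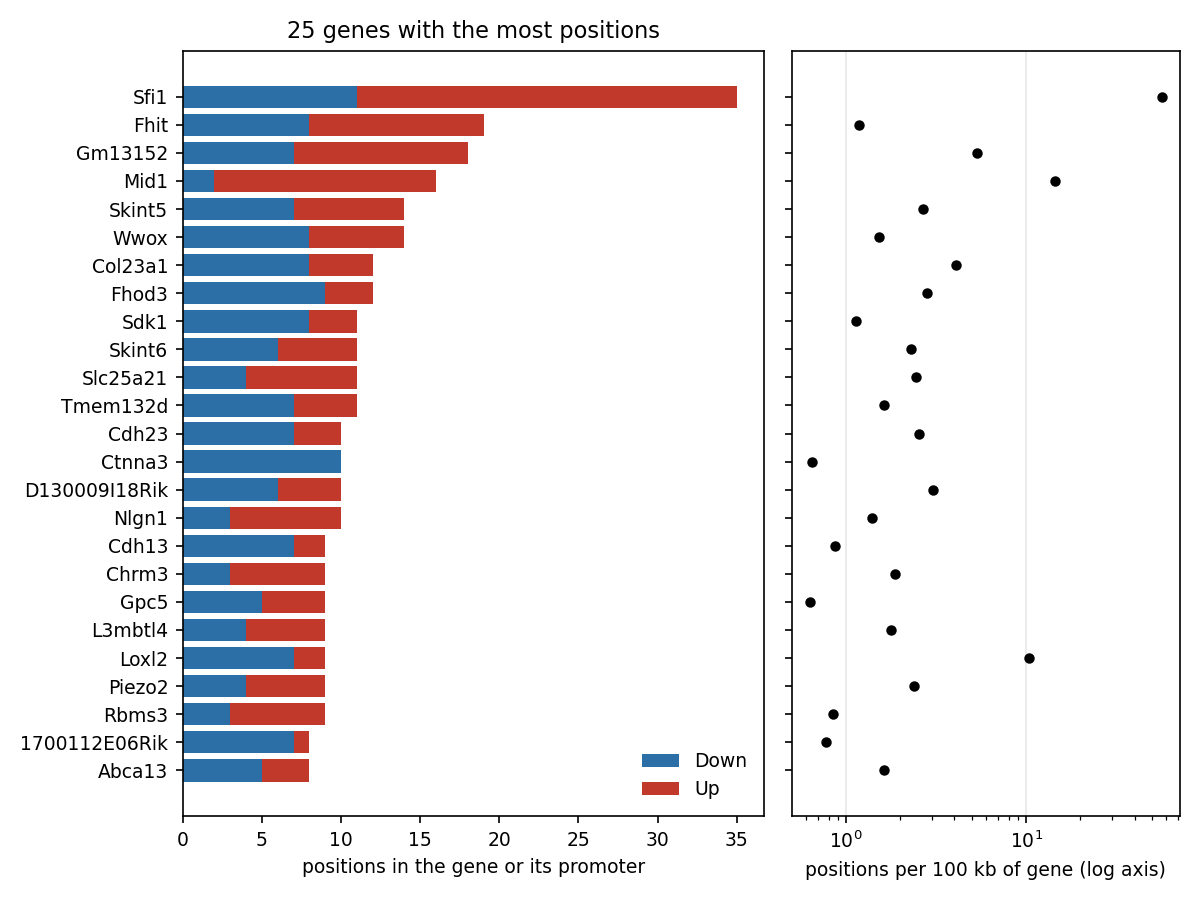
The 25 genes with the most positions: number of positions, stacked by direction (left), and positions per 100 kb of gene on a log axis (right). Sfi1 leads with 35 positions, Ctnna3 is Down at all 10, and Sfi1, Mid1 and Loxl2 pass 10 positions per 100 kb.

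Among long genes, the directions were mixed in most. Of all positions with a gene, 62.4% were Down, and no single gene was tested against that share. Fhit and Wwox, both at common fragile sites, had 11 Up of 19 and 6 Up of 14. Gm13152 had 11 Up of 18. Skint5 and Skint6, genes for the upkeep of T cells in skin, had 7 Up of 14 and 5 Up of 11. Down prevailed in Fhod3, an actin assembly gene (3 Up of 12), Sdk1, a synaptic adhesion gene (3 of 11), Cdh23, a cadherin of hair cells (3 of 10), Cdh13, a cadherin without a cytoplasmic tail (2 of 9), Loxl2, a collagen cross-linking enzyme gene (2 of 9), Col23a1, a collagen gene (4 of 12) and 1700112E06Rik (1 of 8). Tmem132d and D130009I18Rik had 4 of 11 and 4 of 10, Gpc5, a heparan sulphate proteoglycan gene, 4 of 9 and Abca13, a transporter gene, 3 of 8. Up prevailed in Slc25a21, a mitochondrial carrier gene (7 of 11), Nlgn1, a postsynaptic adhesion gene of excitatory synapses (7 of 10), Chrm3, a muscarinic acetylcholine receptor gene (6 of 9), and Rbms3, an RNA-binding protein gene (6 of 9). Piezo2, a mechanosensitive channel gene, and L3mbtl4 each had 5 of 9. Asic2, an acid-sensing channel gene, had 6 Up of 7.

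The same genes in the other pairs of groups, which share animals with this one, held other counts. In Chrm3, resilient against control listed 1 Up of 3 and resilient against susceptible 0 Up of 5. In Nlgn1 the counts were 4 of 7 and 7 of 11, in Fhit 16 of 21 and 8 of 16, and in Col23a1 0 of 4 and 0 of 1. In Sfi1 they were 1 of 23 and 0 of 26, and in Mid1 0 of 8 and 0 of 27.

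No gene with at least 5 positions was Up at all of them, and 13 were Down at all, where 62.4% of all positions with a gene were Down. Ctnna3, which encodes an alpha-catenin that links cadherins to actin, had 10 Down positions spread over 1493 kb of its 1546 kb. Clybl, a mitochondrial enzyme gene, had 8 over 160 kb of its 221 kb. Camta1, a calmodulin-binding transcription activator gene, Cpne4, a calcium-dependent membrane-binding protein gene, Efcab6 and Rn45s each had 6. Egflam, Hdac9, a class II histone deacetylase gene, Ltbp1, which binds latent TGF-beta, Nfia and Runx1, transcription factor genes, Ttn, which encodes the muscle protein titin, and Vwc2 each had 5. In resilient against control, Ctnna3 had 2 positions, Ltbp1 7 and Nfia 3, all Down, whereas Ttn had 5 with 4 Up and Camta1 9 with 3 Up.

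Most positions lay outside clusters, and the directions of neighbours matched little more often than the overall mix gives. How many clusters an even spread of the positions would give was not computed. With gaps of at most 1000 bp, 557 positions (3.35%) fell in 267 clusters, of which 247 were pairs, 17 held 3 positions and 3 held 4. All positions were Up in 50 clusters and Down in 93, and 124 were mixed. The median gap between neighbours was 73050 bp. Neighbours within 500 bp had the same direction in 52.3% of 128 pairs, those 500 to 1000 bp apart in 58.0% of 162, and those 1 to 5 kb apart in 53.4% of 830, where unrelated neighbours would match in 51.8%.

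The clusters of 4 lay in Mid1 and G530011O06Rik on X (166412172 to 166413442, 4 Up), on Y (2779692 to 2781122, 3 Up and 1 Down) and in Sfi1 on chromosome 11 (3064282 to 3065542, 2 Up and 2 Down). Of the 20 clusters with at least 3 positions, 8 were in Sfi1 or Mid1 and 3 were on Y. In windows of 1 Mb, the 18 autosomes had a median of 7 positions over the 2200 windows with any, and 36 of all 2284 windows had at least 20. The fullest, 3 to 4 Mb on chromosome 11, held 51 with 35 of them in Sfi1. Other full windows included known genes. That at 146 Mb of chromosome 4 held 32, 18 of them in Gm13152. That at 112 Mb held 25, 11 of them in Skint6. That at 146 Mb of chromosome 5 held 29, with Cyp3a25, Cyp3a57 and Cyp3a44, drug-metabolising enzyme genes, among its genes. That at 18 Mb of chromosome 17 held 27, with 4 in the pheromone receptor gene Vmn2r92.

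Lists of genes by function were read against the 37.6% Up of all positions with a gene. How many positions or genes a list had was not compared with all genes, since genes with many positions were long. The Wilson intervals of 29 of the 30 lists and families with a position held that value, and neurexins and neuroligins lay above it. Their 22 positions were in 6 of 17 genes and 13 were Up (59.1%; 38.7% to 76.7%). Nlgn1 supplied 10 of the 22 positions and 7 of the 13 Up. Its 6 positions more than 1000 bp from an ACF1 segment were all Up, and of its 4 nearer ones 1 was Up, a split chosen after the values were seen. Cntnap2, a neurexin-family gene, had 2 Up and 3 Down, Cntnap5c had 2 and 2, and Nrxn3, which encodes a presynaptic partner of neuroligins, had 1 Up.

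Receptors for glutamate, GABA and glycine had more Down than Up, within counting error of the background, where 62.4% of positions with a gene were Down. How many of all genes had more Down than Up was not counted. Glutamate receptors and their scaffolds had 39 positions in 19 of 41 genes, 11 Up (28.2%), and 12 genes had more Down, 4 more Up. Kainate receptor genes Grik1 (1 Up, 3 Down) and Grik3 (3 Down), and the metabotropic gene Grm8 (3 Down) were among them, while Gria4, an AMPA receptor gene, and Grin2a, an NMDA receptor gene, each had 2 Up and 1 Down. GABA and glycine receptors had 16 positions in 9 of 23 genes, 4 Up. Gabbr2, a GABA-B receptor subunit gene, had 2 Up and 4 Down, and Glra1, a glycine receptor gene, had 1 Up and 2 Down. Receptors for monoamines, acetylcholine and peptides had 20 positions in 7 of 51 genes, 11 Up, of which Chrm3 supplied 6. Htr1f and Htr7, serotonin receptor genes, had 1 Up and 2 Down, and 1 Up and 1 Down, and Tacr1, the substance P receptor gene, had 1 Up and 2 Down.

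**Figure D5:**
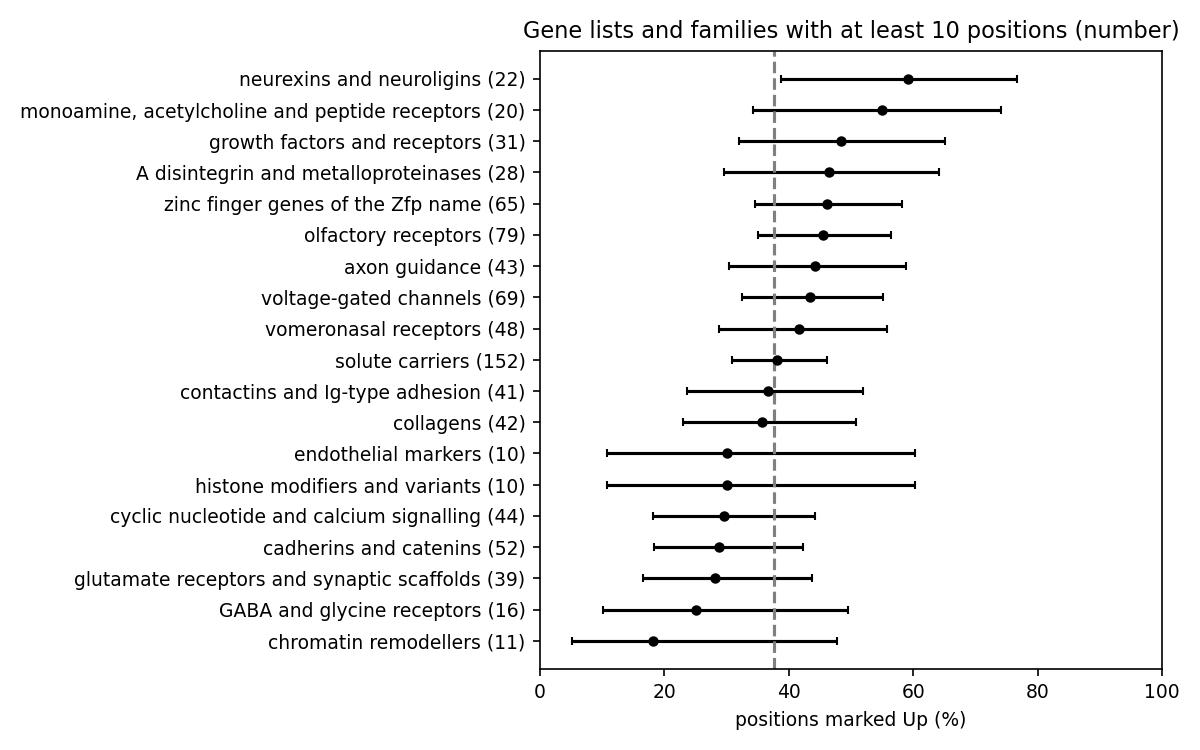
Share of positions marked Up (percent) with Wilson 95% intervals for the lists and families that had at least 10 positions, whose number is in parentheses; the dashed line marks 37.6%, the share over all positions with a gene. Neurexins and neuroligins (59.1%, interval from 38.7%) are the only entry whose interval lies above the line, by a small margin, and no interval lies below it.

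Adhesion and guidance genes shape contacts between neurons, and the members with the most positions leaned both ways. Cadherins and catenins had 52 in 16 of 45 genes, 15 Up (28.8%), with Ctnna3, Cdh23, Cdh13 and Pcdh15 (2 Up, 4 Down) supplying most. Contactins and related adhesion genes had 41, 15 Up (36.6%), with Negr1 at 3 Up, Cntn4 at 4 Down and Ntm at 3 Down. Axon guidance genes had 43, 19 Up (44.2%). Among these, Efna5, an ephrin gene, had 4 Down, Plxna4, a semaphorin receptor gene, had 3 Up and 1 Down, and Sema3e and Sema5a, semaphorin genes, had 2 Up and 2 Down each.

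Signalling and channel genes spread in both directions. Voltage-gated channels and related genes had 69 positions in 27 of 56 genes, 30 Up (43.5%), led by Asic2, Dpp6, a potassium channel partner (2 Up, 5 Down), Ryr2, an internal calcium release channel (2 Up, 5 Down), and Kcnip1 (2 Up, 3 Down). Cyclic nucleotide and calcium signalling had 44 in 20 of 45 genes, 13 Up (29.5%; 18.2% to 44.2%), and the interval holds the background of 37.6%. More Down than Up was listed in 15 genes and more Up in 3, where 62.4% of all positions with a gene were Down. Phosphodiesterase genes Pde4d (2 Up, 4 Down) and Pde1c (4 Down), Camk1d (2 Up, 3 Down) and Itpr2, a calcium release channel gene (1 Up, 3 Down), supplied the most. In resilient against control and resilient against susceptible, which share animals, this list had 20 Up of 38 and 30 Up of 47. Over all their positions outside chromosome 1, 38.3% and 48.8% were Up. Glutamate receptors and scaffolds had 16 Up of 38 and 31 Up of 47 there, and cadherins and catenins 12 of 41 and 19 of 44. Growth factors and receptors had 31 positions, 15 Up (48.4%), with Nrg3, a neuregulin gene, at 3 Up and 5 Down, Egfr at 1 Up and 2 Down and Fgf2 at 2 Up and 1 Down.

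The lists of chromatin, stress and cell type genes had at most 11 positions each. Chromatin remodellers had 11 in 9 of 36 genes, 2 Up. Baz1a, which encodes ACF1 itself, had 1 Down, Baz2b had 1 Up and 1 Down, Chd7 had 2 Down and Chd3 had 1 Up. Histone modifiers had 10 in 6 of 61 genes, 3 Up, and Hdac9 held 5 of the 7 Down. Stress hormone signalling had 4, all Down, in Crem (2), a cyclic AMP-responsive factor, Crhr2 (1), a receptor for corticotropin-releasing factor peptides, and Ucn3 (1), its ligand. Immediate early genes had 1, Up, in Fosl2. The 23 symbols of medium spiny neuron identity include alternative names of the same gene. Among them Ebf1, a transcription factor of striatal neurons, had positions, 1 Up and 3 Down. How many of these genes had a position was not compared with all genes.

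Markers of other cells of the punch had 1 position for astrocytes (Slc1a2, Down), 4 for oligodendrocytes (2 Up), 2 for microglia (both Down), 10 for endothelium (3 Up), 6 for cortical excitatory neurons (1 Up) and 6 for interneurons (2 Up). Their part in the other results was not tested. Among families taken by symbol, the olfactory receptors had 79 positions in 75 genes, 36 Up, and 73 of the 79 were promoter positions of these short genes. Vomeronasal receptors had 48, 20 Up, zinc finger genes named Zfp had 65, 30 Up, solute carriers 152, 58 Up, and collagens 42, 15 Up.

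Positions near ACF1 segments were Up more often than elsewhere. The authors' deposited lists of ACF1 segments hold 200 bp steps of a minority state whose meaning is not given in the sources used here. Of the 16617 positions, 310 (1.87%) lay within 1000 bp of a segment in any of the 3 groups, and 174 of these were Up (56.1%; 50.6% to 61.5%). The other 16307 were 40.1% Up. The share was 59.0% of 217 for segments of control mice, 56.6% of 272 for those of susceptible mice and 64.0% of 200 for those of resilient mice, and the sets overlap.

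Much of this subset came from a few loci. Sfi1 supplied 35 of the 310, Gm13152 and Mid1 9 each, Rn45s 6 and Pisd-ps3 4, and 58 of the 96 pericentromeric positions were in it. Without Sfi1 and Mid1, 143 of 266 were Up (53.8%; 47.8% to 59.7%), and without pericentromeres as well 106 of 208 (51.0%; 44.2% to 57.7%), still above the 40.1% elsewhere. The last 2 values were chosen after seeing the data.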

How the data were processed

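H3 occupancy tables give, for each pair of groups, a position, a direction (Up or Down), a genomic class and the gene named for it, as deposited by the authors with no numeric score, p-value or read count. Build mm9 and CASAVA 1.8.2 are named per the submitters' processing notes, with aligner and calling program not given in the sources used here. Read depth is unknown. Positions lie on a 10 bp grid (99.9% of them) and are printed 1-based. Chromosome 1 was left out. Counts, shares with 95% Wilson intervals, distances to gene starts, clusters (gap at most 1000 bp) and overlaps with ACF1 segments were computed in Python 3.11.15 with pandas 2.3.3 and tested on simulated data. Symbols were matched to RefSeq by accession (97.8%).

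The genes named are the 25 with the most positions, those with at least 5 positions all in 1 direction, up to 4 per list, promoter genes with at least 2 positions or in a list, the 10 largest clusters, and the closest starts. Exceptions are marked, and some genes that the rule names are not reported here. Members and lists were chosen with earlier results of these data known. Groups have 1 result per pair, so no test was made. Alternatives changed the cluster gap, promoter width, ACF1 window and minimum positions per gene.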

Additional observations from a re-analysis of the deposited data

How the results depend on the processing

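Of 45 alternatives over 12 results, 39 left the value within its counting interval or, for counts, within 1.5 times, and 6 moved it. Single chromosomes left out made up 20 of the 45 and could move the pooled share little. Besides them, 19 of 25 left the value in place. Leaving intergenic classes out of the gene lists could not move their count (857), since those classes name no gene. With chromosome 1 kept, the share of Up fell from 40.4% to 14.8%. Promoter positions numbered 241 within 1000 bp of a start. Clustered positions numbered 254 with a gap of 500 bp and 2067 with 5000 bp. Genes numbered 406 with at least 3 positions. Positions near ACF1 segments numbered 473 within 5000 bp. These 5 counts move because the alternative itself takes in fewer or more positions. Leaving out each chromosome in turn gave 39.99% (without chromosome 3) to 40.7% Up. No paired analysis was possible because each pair of groups has 1 deposited result with no sample values, and no replicate could be left out. Positions at the same coordinate in the other tables are not given as a result, since the tables share groups, and that count was not repeated with a 100 bp tolerance or with chromosome 1 kept. Depth, effect size and false positive rate of the listing are unknown.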

Other observations

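A separate deposited list gives nucleosome shifts for susceptible against control, with 579 outside chromosome 1. Of the H3 occupancy positions, 5 were at the coordinate of a shift, 17 lay within 200 bp (8 Up, 9 Down) and 69 within 1000 bp (36 Up, 33 Down). Sfi1 had 12 shifts, Gm13152 11, Mid1 4 and Nlgn1 2.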
